A study of Mus musculus with 9 samples.

Results

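Hedgehog pathway genes were followed through RNA-Seq of cultured AdvSca1-SM cells, the Sca1-expressing progenitor cells of the arterial adventitia that derive from smooth muscle. The genes were 7 listed members of the pathway, found by their Ensembl identifiers among the 55416 genes of the count table: *Gli1* (ENSMUSG00000025407), *Gli2* (ENSMUSG00000048402), *Gli3* (ENSMUSG00000021318), *Ptch1* (ENSMUSG00000021466), *Smo* (ENSMUSG00000001761), *Hhip* (ENSMUSG00000064325) and *Sufu* (ENSMUSG00000025231). All 7 were found, and 6 passed the filter on low counts. *Hhip* did not pass it, so its counts are described and were not part of the main test.

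The 9 libraries formed 3 groups of 3 independent replicates. The cells were sorted from aortas and carotid arteries, pooled over SM22α-Cre-YFP mice on a C57BL/6 background, in which Cre is driven by the promoter of a smooth muscle gene, so that YFP-positive, Sca1-positive cells were at some time SM22α-expressing. Stem cells received vehicle and, by the study's account, stayed in stem cell media, whose maintenance recipe holds 10% FBS with basic fibroblast growth factor and epidermal growth factor. TGF-β cells were growth arrested, moved to DMEM with 0.1% FBS and given 5 ng/mL TGF-β1. The cells of the Both group had the same medium and TGF-β1 dose plus 50 μM PFI-3, a small-molecule inhibitor aimed at the bromodomain of Brg1, the ATPase of a chromatin remodeling complex. All groups carried 0.1% DMSO for 72 hours. Medium, serum and TGF-β1 change together between Stem and the other groups and cannot be told apart, whereas PFI-3 is what sets Both apart from TGF-β. Groups are bulk cultures, in which fewer cells of a type and less RNA per cell cannot be told apart.

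Hedgehog ligands (Sonic, Indian and Desert hedgehog) bind Patched receptors on the receiving cell. Without ligand, Patched keeps the membrane protein Smoothened inactive, and the transcription factors Gli2 and Gli3 are held by Sufu and cut into repressors at the primary cilium. With ligand, Smoothened enters the cilium and full-length Gli proteins turn on targets, among them *Ptch1*, *Hhip* and *Gli1* themselves, which is why these transcripts are widely read as signs of an active pathway. In the arterial wall the pathway is best known from the adventitia, and *Gli1* marks perivascular progenitor cells that can form myofibroblasts. The study used a *Gli1*-CreERT driver, which tamoxifen switches on, to trace AdvSca1-SM cells in mice.

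Total counts ranged from 35686291 to 47741128 per library, and 3 counts corresponded to between 2.63 and 3.26 normalized counts (counts put on the scale of an average library after TMM scaling in edgeR). The lowest Spearman correlation between replicates across genes was 0.995, and the biological coefficient of variation was 6.13%. The labelled cell type was checked against *Ly6a*, *Pdgfra*, *Cd34* and *Scara5*, markers of adventitial progenitors, whose summed normalized counts were 50475 to 58767 in Stem and 6361 to 7423 in the TGF-β and Both libraries together. All 4 fell with TGF-β and were detected in every library. Hepatocyte markers, checked because an extraction note in the labels names hepatic tissue, summed to at most 2.63 normalized counts in any library.

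Promoters of the members that moved together are shown first. RefSeq's GRCm38.p6 promoter table held 6 of the 7 members, and the 250 bases before the start of *Ptch1* and of *Gli3* are printed because *Ptch1* was the only member called in all 3 comparisons and *Gli3* is the most abundant Gli factor. Ptch1 lies at chr13:63565736-63565985 (minus strand) and Gli3 at chr13:15463473-15463722 (plus strand). Capitals mark each GC box (GGGCGG, or CCGCCC on the other strand).
Ptch1: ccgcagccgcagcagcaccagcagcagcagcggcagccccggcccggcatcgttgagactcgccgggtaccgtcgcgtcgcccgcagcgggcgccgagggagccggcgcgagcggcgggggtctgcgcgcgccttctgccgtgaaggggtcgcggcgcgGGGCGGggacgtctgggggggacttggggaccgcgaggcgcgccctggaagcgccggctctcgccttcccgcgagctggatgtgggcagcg
Gli3: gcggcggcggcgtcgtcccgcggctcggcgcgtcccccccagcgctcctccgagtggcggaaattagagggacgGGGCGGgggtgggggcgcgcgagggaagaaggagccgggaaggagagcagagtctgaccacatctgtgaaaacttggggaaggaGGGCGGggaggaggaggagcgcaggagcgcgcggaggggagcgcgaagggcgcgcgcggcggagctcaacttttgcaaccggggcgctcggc
The GC box occurred in 5 of the 6 members' windows, in all but that of *Smo*, against 32.7% of the 32851 promoters in the table. The core of the Gli binding sequence, CCACCCA on either strand, occurred in 0 of the 6 windows and in 8.11% of all promoters. The longer Gli sequence GACCACCCA, which contains that core, occurred in 0 of 6 and in 0.225% of all, and the SMAD palindrome GTCTAGAC in 0 of 6 and in 0.167%. The Gli sequences and the full SMAD palindrome, as spelled here, are not in these windows. Shorter or varied forms of them, such as the GTCT that both printed windows hold, were not searched for. The palindrome is rare in all promoters, so its absence here is the usual case. A match or its absence is a description of sequence and says nothing of binding. Their GC content was 78.4% for *Ptch1*, 76.0% for *Hhip*, 72.8% for *Gli3*, 68.4% for *Smo*, 67.2% for *Gli2* and 54.0% for *Sufu*, beside a median of 52.4% over all promoters. They held between 8 (*Sufu*) and 41 (*Ptch1*) CpG pairs, beside a median of 6.

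Levels of the members can be compared with each other only per transcript length, here as normalized counts per kilobase of exon. In Stem the order of these levels was *Smo* at 1006 ± 62.2 (SD, n = 3), *Gli3* at 339 ± 14.7, *Sufu* at 118 ± 8.82, *Ptch1* at 55.1 ± 2.2, *Gli2* at 17.6 ± 4.33, *Hhip* at 1.01 ± 0.824 and *Gli1* at 0.212 ± 0.210. Signal transducers and repressors of the pathway were thus well above *Hhip* and *Gli1*, the feedback antagonist and the target transcription factor, and the levels of that last pair differed by less than the SD of *Hhip*. The per-kilobase order with TGF-β was the same for the first 5 genes, from *Smo* at 783 ± 19.1 through *Gli3* at 149 ± 3.85, *Sufu* at 74.6 ± 2.60 and *Ptch1* at 32.5 ± 1.15 to *Gli2* at 4.75 ± 1.15. *Gli1*, at 2.31 ± 0.141, then stood above *Hhip*, at 0.0717 ± 0.124. In Both the levels per kilobase were 767 ± 13.9, 144 ± 1.72, 72.5 ± 5.00, 39.2 ± 2.82, 5.28 ± 0.312 and 2.68 ± 1.37 for *Smo*, *Gli3*, *Sufu*, *Ptch1*, *Gli2* and *Gli1*, and *Hhip* had no counts. Neighbors from *Smo* to *Gli2* in these orders differed beyond their spread in every group.

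**Figure D1:**
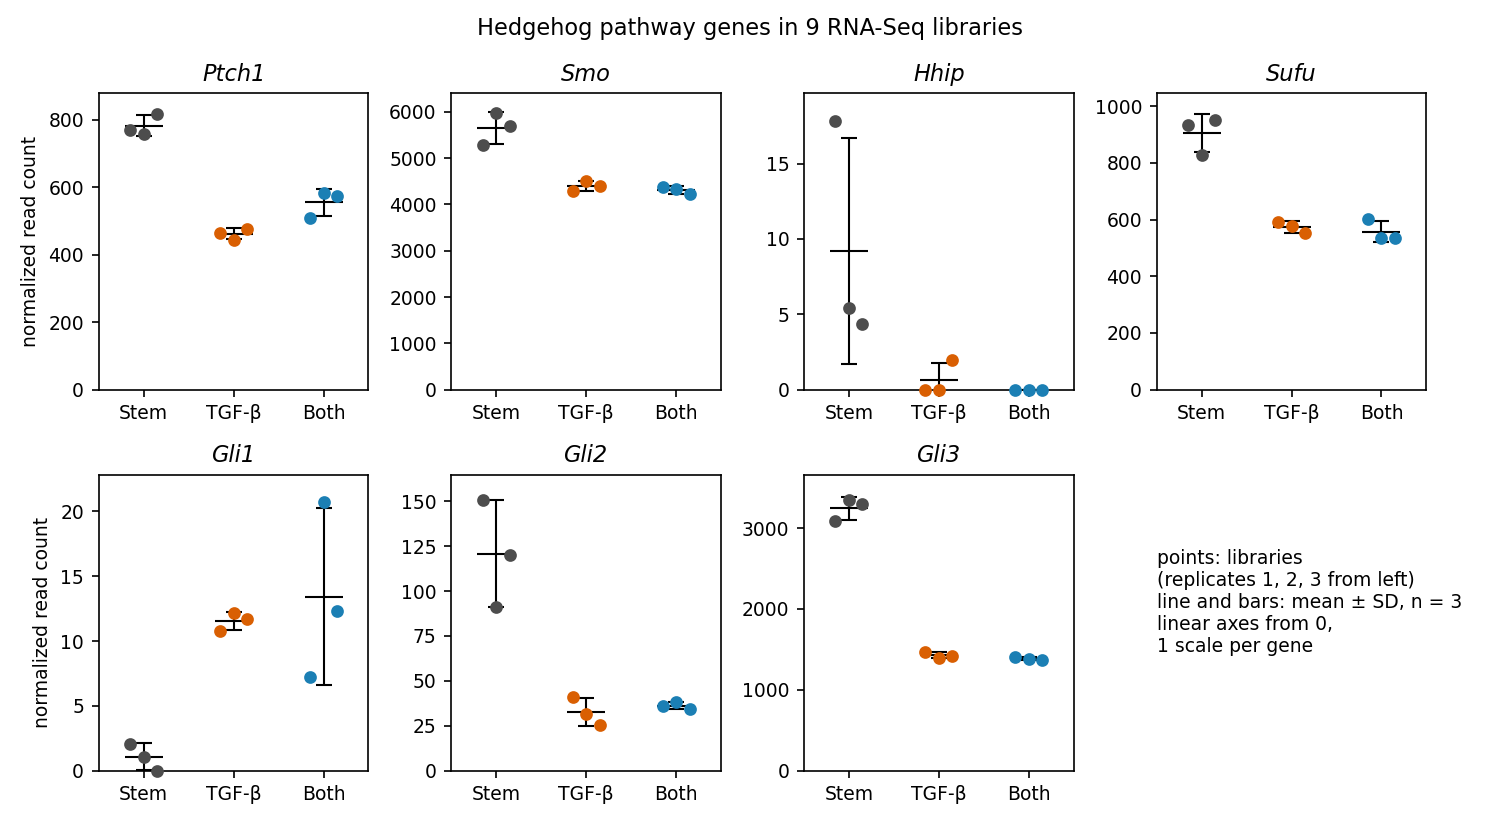
Normalized read counts (linear axes from 0, each gene on its own scale) of the 7 Hedgehog genes in the 9 libraries, with replicates from left to right and mean ± SD (n = 3) in black. Stem libraries lie above all others for *Ptch1*, *Smo*, *Hhip*, *Sufu*, *Gli2* and *Gli3* and below all others for *Gli1*; the Both libraries of *Ptch1*, from 509.6 to 582, lie above the TGF-β libraries, from 444 to 476.

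The comparison of Stem with TGF-β asks how the pathway's genes differ between progenitor culture and TGF-β1 stimulation. Among the 6 tested members, the receptor, transducer and repressor genes were lower with TGF-β, *Gli2* and *Gli3* most of all, while *Gli1* was higher from almost nothing. A gene is said to rise or fall where the adjusted p was below 0.05 (edgeR's quasi-likelihood test, Benjamini-Hochberg adjustment over all 14879 genes tested). By this rule 5 of the 6 tested members fell and 1 rose, but 37.7% of all tested genes fell, 37.3% rose and 75.0% were called in either direction, so being called is the usual case here. With a log2 fold change beyond 1 as well, the study's own threshold, 3 of the 6 members were called (*Gli1*, *Gli2* and *Gli3*), beside 25.1% of all genes. The median log2 fold change of the 6 was -0.71, beside -0.0027 over all genes tested.

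*Ptch1*, the receptor that restrains Smoothened, had 768, 758 and 817 normalized counts in Stem and 464, 444 and 476 with TGF-β. The groups did not overlap, and the log2 fold change was -0.76 ± 0.066 (SE; adjusted p = 4.9e-07), which is a 1.69-fold lower level. *Smo* encodes Smoothened, the signal transducer, and had 5288, 5984 and 5690.5 normalized counts in Stem and 4288, 4503 and 4404 with TGF-β. Every TGF-β library was below every Stem library, but the change was the smallest of the 6, at -0.36 ± 0.046 on the log2 scale (adjusted p = 1.5e-05). *Sufu* encodes the cytoplasmic inhibitor that binds Gli proteins and had 935, 827 and 952 normalized counts in Stem and 592, 576 and 553 with TGF-β. Its log2 fold change was -0.66 ± 0.070 (adjusted p = 3.3e-06), again with no overlap. The receptor and the inhibitor of the pathway therefore moved in the same direction.

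*Gli3*, chiefly a source of repressor, had 3086, 3352 and 3300 normalized counts in Stem and 1471, 1399 and 1422 with TGF-β. These are tight groups that lie far apart, and the log2 fold change was -1.18 ± 0.043 (adjusted p = 1.5e-10), a 2.27-fold lower level. *Gli2*, the main activator at the start of a response, had 151, 91.3 and 120.1 normalized counts in Stem and 41.0, 31.4 and 25.4 with TGF-β. Stem libraries were more scattered than for *Gli3*, and the lowest was still above the highest TGF-β library. Its log2 fold change was -1.89 ± 0.22 (adjusted p = 6.4e-06), a 3.72-fold lower level. *Gli3* shares 188 exon bases with a gene on the other strand (Gm6556) that held 176 counts in all libraries together; *Gli2*, *Ptch1*, *Smo* and *Sufu* share none.

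*Gli1*, the activator that is itself switched on by the pathway, had 2, 1 and 0 raw counts in Stem and 10, 12 and 12 with TGF-β. Stem libraries were at or near 0, with 3 counts in the group as a whole, so the transcript of the gene whose promoter drives the in vivo reporter was close to undetected in the Stem cultures. The group sums gave a 10.8-fold ratio with an exact 95% interval from 3.40 to 55.0, which covers counting error only, and 21.4-fold without Stem replicate 1. The fitted log2 fold change, 3.29 ± 0.70 (adjusted p = 0.0010), depends on the prior count where a group is this low, and with a prior count of 2 it was 2.14. Leaving out Stem replicate 1 moved it to 4.14 (adjusted p = 0.0015). At 10 to 12 counts of library totals between 39453841 and 43194424, *Gli1* remained a rare transcript with TGF-β. By the paper's account of its earlier RNA-Seq in mice, *Gli1* fell as a stemness-related gene after carotid injury. That direction is opposite to the rise seen here, in a setting unlike this culture. *Gli1* shares 62 exon bases with *Arhgap9* on the other strand, which had 5 counts over all 9 libraries.

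*Hhip*, a membrane protein that binds and sequesters Hedgehog ligands, differed the other way. It had 17, 5 and 4 raw counts in Stem, 0, 0 and 2 with TGF-β, and 0 in each library of Both. Stem replicate 1 held 17 of the 26 Stem counts, and the other Stem libraries were still above all TGF-β and Both libraries. The group sums gave a level 13.6-fold higher in Stem than with TGF-β (exact 95% interval 3.41 to 119, counting error only) and at least 10.1-fold higher than in Both, taking a floor of 3 counts over the group. Without Stem replicate 1 these values were 7.16-fold and at least 5.31-fold. Leaving out TGF-β replicate 2 gave 9.06-fold and TGF-β replicate 3 at least 5.92-fold against TGF-β, and leaving out 1 library of Both gave bounds of 6.57-fold to 6.96-fold. Without the filter on low counts, edgeR gave an adjusted p of 3.2e-04 for Stem versus TGF-β and 4.4e-06 for Stem versus Both, and DESeq2 gave 0.019 and 6.0e-04. *Gli1* and *Hhip*, both classed as pathway targets, thus differed in direction, and both rest on few counts.

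TGF-β versus Both asks what PFI-3 changes in TGF-β1-stimulated cells. Only *Ptch1* was called among the 6 tested members, which is 1 riser and 0 that fell, beside 3.54% of all genes that rose, 5.38% that fell and 8.92% called in either direction. No member was past a log2 fold change of 1 (0.632% of all genes were), and DESeq2 also called 0 past that size. At an unadjusted p under 0.05 in edgeR there was 1 of the 6, and no share of all genes is given at that threshold. The median log2 fold change of the 6 was 0.065, beside -0.0020 over all genes tested.

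*Ptch1* had 464, 444 and 476 normalized counts with TGF-β and 509.6, 582 and 575 in Both. The groups did not overlap, and *Ptch1* was higher in Both by a log2 fold change of 0.27 ± 0.067 (95% interval 0.12 to 0.41, adjusted p = 0.028), which is 1.20-fold. The call rests on 5 of the 6 libraries compared: leaving out any 1 of the 3 TGF-β libraries, Both replicate 2 or Both replicate 3 left the direction and raised the adjusted p above 0.05, to as much as 0.1254, while without Both replicate 1 the call was kept. The Both libraries of *Ptch1* remained below every Stem library, whose lowest was 758.

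The other 5 members did not pass the test, and the intervals show what change could have gone unseen. For *Gli3*, with 1404, 1377 and 1374 normalized counts in Both, the log2 fold change was -0.05 with a 95% interval from -0.14 to 0.05. For *Smo*, with 4376, 4335 and 4225, it was -0.03 (-0.13 to 0.07), and for *Sufu*, with 602, 536 and 535, it was -0.04 (-0.20 to 0.12). The intervals of these 3 genes were narrow, and none of them reached further from 0 than the lower bound for *Sufu*. The intervals of the low genes were wide: *Gli2*, with 36.01, 38.5 and 34.2 normalized counts in Both, had 0.16 (-0.39 to 0.71), and *Gli1*, with 8, 21 and 14 raw counts, had 0.19 (-0.68 to 1.06). For *Gli1* the sign of the difference rested on Both replicate 2 and was -0.24 without it.

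Stem versus Both shares its Stem libraries with the first comparison and its Both libraries with the second, so its values are given beside theirs and are not a separate line of evidence. In it 5 of the 6 members fell and 1 rose, beside 36.6% of all genes in each direction and 73.3% in either. Past a log2 fold change of 1 there were 3 of 6, beside 22.8% of all genes. Log2 fold changes from Stem to Both were -0.49 ± 0.064 for *Ptch1*, -0.39 ± 0.046 for *Smo* and -0.70 ± 0.070 for *Sufu*. The Gli factors gave -1.23 ± 0.043 for *Gli3* and -1.74 ± 0.21 for *Gli2*. All 5 had adjusted p of at most 2.2e-05 in edgeR's test. *Gli1*, with 43 counts in Both against 3 in Stem, had a ratio of 12.3 (exact 95% interval 3.94 to 62.0), or 24.3 without Stem replicate 1. The median log2 fold change of the 6 was -0.59, beside -0.0046 over all genes.

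**Figure D2:**
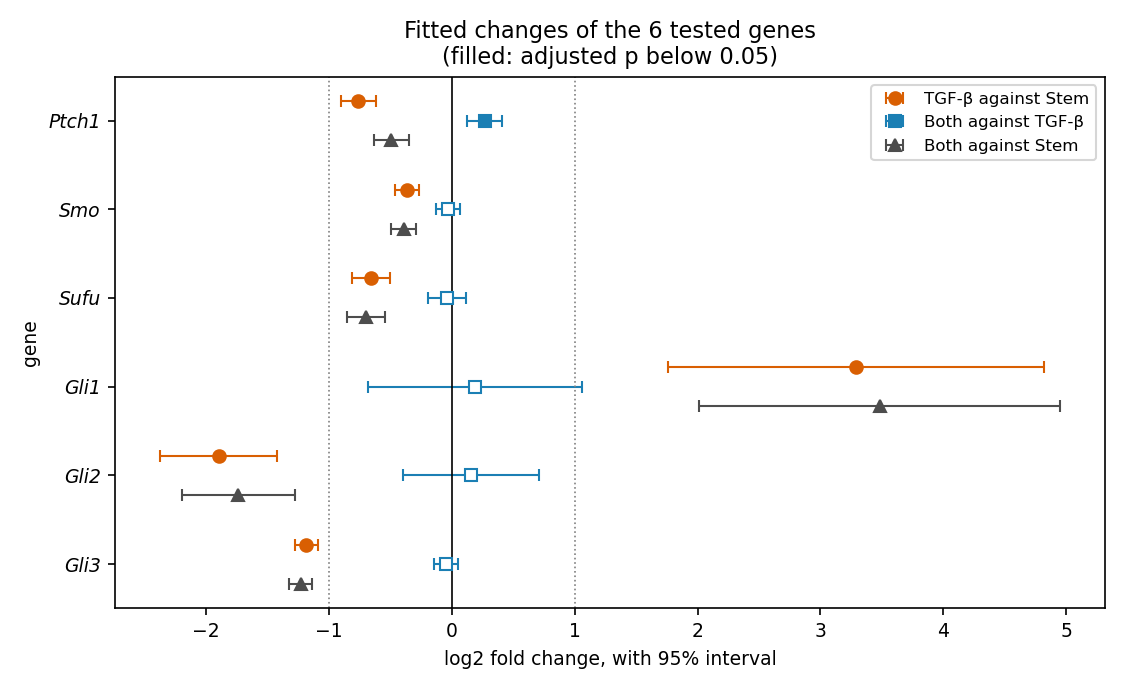
Fitted log2 fold changes with 95% intervals of the 6 tested Hedgehog genes in the 3 comparisons, where filled symbols have an adjusted p below 0.05 and dotted lines mark a log2 fold change of 1 in either direction. TGF-β and Both differ from Stem in the same direction for each gene, and *Ptch1* alone has a filled symbol for Both against TGF-β, at 0.27.

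The share that each gene held within its family, from levels per length, shows the make-up of the pathway. *Gli3* held 94.98% ± 1.40 (SD, n = 3) of the summed Gli factor level in Stem, 95.5% ± 0.563 with TGF-β and 94.8% ± 1.03 in Both. The fall of *Gli2* and *Gli3* thus left *Gli3* as the main Gli transcript in each group. *Gli1* held 0.0606% ± 0.0609, 1.48% ± 0.132 and 1.76% ± 0.889, and *Gli2* 4.96% ± 1.36, 3.03% ± 0.651 and 3.46% ± 0.177. The Stem and TGF-β libraries did not overlap in the share of *Gli1*, while TGF-β and Both did.

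**Figure D3:**
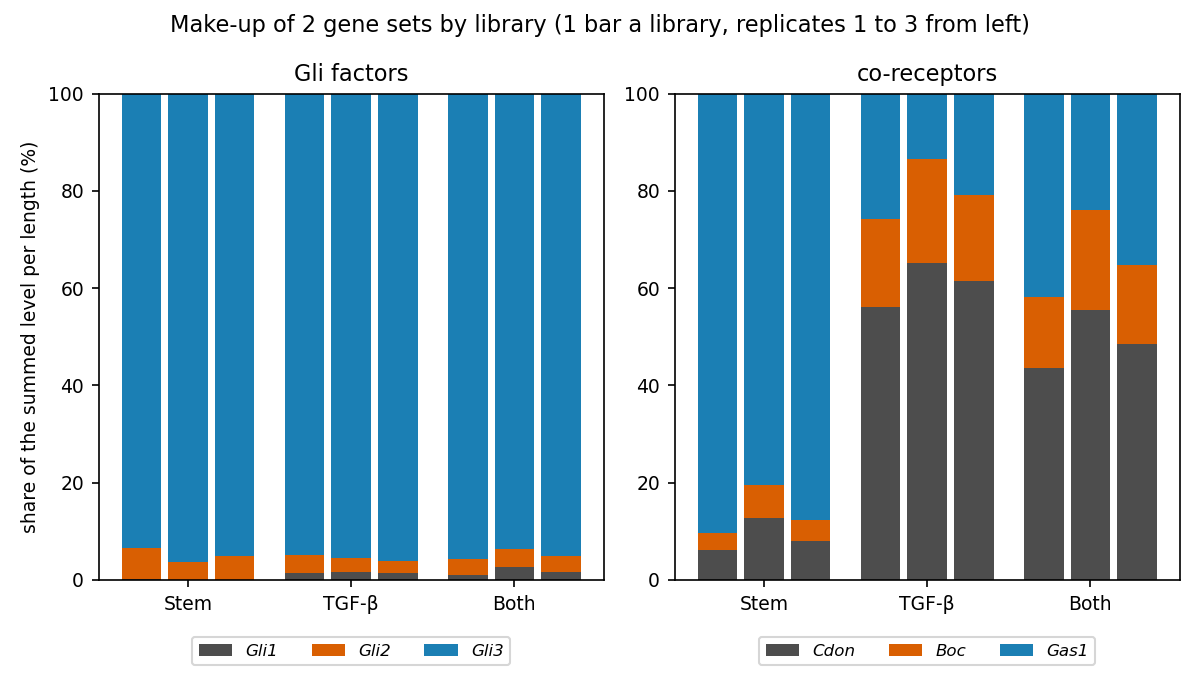
Stacked bars of the percent of the summed level per length held by each Gli factor and co-receptor, 1 bar for each of the 9 libraries. *Gli3* holds at least 93.5% of the Gli factors in each library, and *Gas1* goes from 86.2% of the co-receptors in Stem to 20.01% with TGF-β.

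Receptors and co-receptors outside the member list had log2 fold changes from -5.03 to 4.88 between Stem and TGF-β, a wider span than that of the tested members. Of the 5, 1 rose with TGF-β, 3 fell and 1 did not pass, beside 75.0% of all genes called. Between TGF-β and Both edgeR called 0 of the 5, beside 8.92% of all genes. DESeq2 called 1, and 3 had an unadjusted p under 0.05 in edgeR. No share of all genes is given for either of these counts.

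*Gas1* encodes a lipid-anchored co-receptor that helps Patched to bind ligand and was the most abundant gene of the receptor list in Stem. It had 40774, 22145 and 34183 normalized counts in Stem, 1312, 624 and 1041 with TGF-β, and 2428, 1133 and 1896 in Both. The Stem libraries lay far above the rest, and replicate 2 was the lowest of its group in each of the 3 groups. The log2 fold change from Stem to TGF-β was -5.03 ± 0.34 (adjusted p = 4.2e-08), a 32.7-fold lower level. TGF-β and Both overlapped, and their difference did not pass the main test (0.88, adjusted p = 0.100). With a replicate block *Gas1* was called higher in Both, as given in the closing section. The labels do not say that replicate numbers pair the cultures. *Gpc3*, a glypican that binds Hedgehog ligands and restrains the pathway, had 96.3, 132.6 and 99.5 normalized counts in Stem and 7.55, 12.2 and 14.6 with TGF-β; its log2 fold change was -3.23 ± 0.23 (adjusted p = 9.2e-08). In Both it had 15.3, 18.8 and 14.9.

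*Lrp2*, the megalin receptor that takes up Sonic hedgehog, went the opposite way from *Gas1*. It had 70.1, 31.5 and 41.1 normalized counts in Stem, 1489, 1273 and 1462 with TGF-β, and 1673, 1697 and 1875 in Both. It rose with TGF-β by a log2 fold change of 4.88 ± 0.16 (adjusted p = 5.4e-11), and the further difference in Both, 0.31, did not pass (adjusted p = 0.079) although those groups did not overlap. *Boc*, a co-receptor of the immunoglobulin family, fell from 2305, 2738 and 2508 normalized counts to 1375, 1497 and 1328, a log2 fold change of -0.85 ± 0.072 (adjusted p = 3.9e-07). Its relative *Cdon* had 7225, 9195 and 8165 in Stem and 7437, 7903 and 8020 with TGF-β, with overlapping groups and a log2 fold change of -0.07. Of the summed level per length of *Gas1*, *Boc* and *Cdon*, *Gas1* held 86.2% ± 5.11 in Stem, 20.01% ± 6.25 with TGF-β and 33.7% ± 9.04 in Both.

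**Figure D4:**
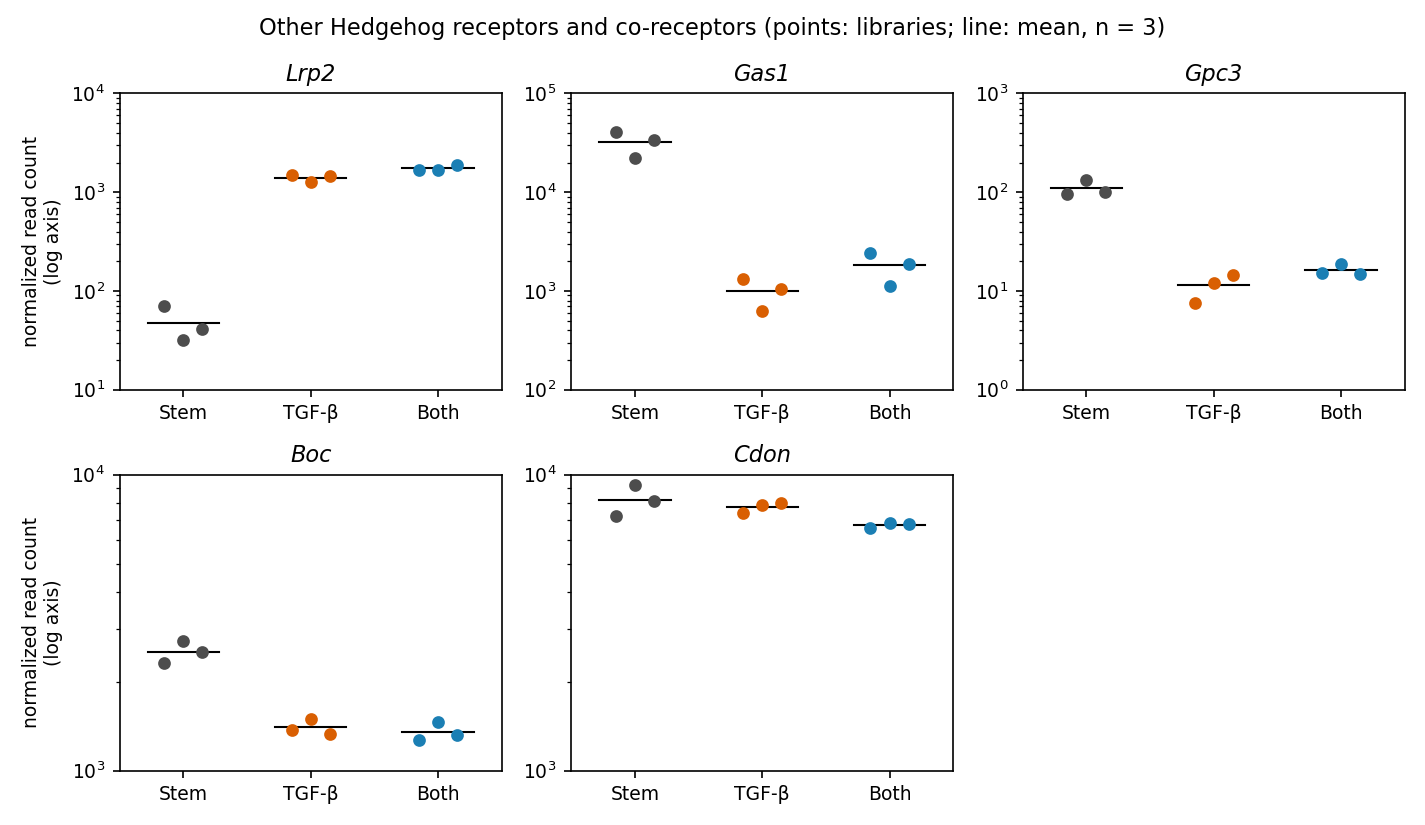
Normalized read counts on log axes of 5 receptors and co-receptors outside the member list, with points for libraries and a line at each mean (n = 3). *Lrp2* is lowest in Stem, from 31.5 to 70.1, and *Gas1*, *Gpc3* and *Boc* are highest in it, while *Cdon* overlaps between Stem and TGF-β.

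Ligand transcripts were rare. *Shh*, which encodes Sonic hedgehog, had 0 counts in all 9 libraries, against a limit of 3 counts in a library. *Ihh*, Indian hedgehog, had 4, 1 and 3 raw counts in Stem, 20, 16 and 11 with TGF-β, and 10, 13 and 7 in Both. TGF-β libraries were above all Stem libraries, with a ratio of group sums of 5.60 (exact 95% interval 2.62 to 13.7) and an adjusted p of 7.6e-04 in edgeR's test. *Dhh*, Desert hedgehog, had 1, 7 and 6 raw counts in Stem, 9, 10 and 10 with TGF-β, and 10, 14 and 7 in Both. It did not pass the filter, and it shares 546 exon bases on the same strand with *Rhebl1*, so its few counts may not all be its own.

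Among the tested genes that prepare and release ligand, *Disp1* and *Scube1* were called between Stem and TGF-β. *Hhat*, the acyltransferase that adds palmitate to the ligands, had 402 ± 25.7 normalized counts in Stem, 422 ± 48.4 with TGF-β and 402 ± 46.9 in Both (SD, n = 3) and passed no test. *Disp1*, the exporter of lipid-modified ligand, rose with TGF-β by a log2 fold change of 0.50 ± 0.068 (adjusted p = 2.9e-05) and fell in Both relative to TGF-β by 0.24 ± 0.067 (adjusted p = 0.048), a call that was lost with total counts in place of TMM and on leaving out Stem replicate 3, any of the TGF-β libraries, or Both replicate 1 or 3. *Scube1*, a secreted helper of ligand release, had 10 counts in each Stem library and 1 or 2 with TGF-β, a ratio of group sums of 6.29 (exact 95% interval 2.42 to 20.8). In the ligand and release list, 2 of the 5 tested genes rose with TGF-β, 1 fell and 2 did not pass, beside 75.0% of all genes called.

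The lists of regulators and of cilium transport moved in both directions and by less. Among 20 regulators of Smoothened and Gli, 8 rose, 7 fell and 5 did not pass between Stem and TGF-β. That is 15 of 20 called, beside 75.0% of all genes, with a median of 0.0099. None was past a log2 fold change of 1, beside 25.1% of all genes. *Kif7*, the ciliary kinesin that organizes Gli and Sufu at the cilium tip, fell by 0.70 ± 0.067 on the log2 scale (adjusted p = 1.2e-06). *Evc*, which binds Smoothened at the base of the cilium, fell by 0.76 ± 0.049 (adjusted p = 3.2e-08). *Arrb2*, an arrestin, fell by 0.85 ± 0.19 (adjusted p = 0.0016), and *Dyrk2*, a kinase that marks Gli2 and Gli3 for degradation, rose by 0.76 ± 0.049 (adjusted p = 2.9e-08). Among 15 genes of primary cilium transport, 8 rose, 4 fell and 3 did not pass, beside the same 75.0%. Again none was past 1, beside the same 25.1%. *Ift80*, *Inpp5e* and *Dync2h1* fell, with log2 fold changes of -0.67, -0.66 and -0.64, and *B9d1* rose by 0.62. *Kif3b*, a named gene of the Stem versus Both comparison, rose there by 0.49 (edgeR's test, adjusted p = 9.0e-08) and with TGF-β by 0.52. *Inpp5e* shares 874 exon bases with *Pmpca* on the other strand, which held 19505 counts in all libraries together, so that its counts may not all be its own. Between TGF-β and Both, edgeR and DESeq2 each called 0 genes of either list; at an unadjusted p under 0.05 in edgeR there were 4 of the 20 regulators and 0 of the 15 cilium genes. Of all genes, edgeR called 8.92% in that comparison at an adjusted p below 0.05. No share of all genes is given at the unadjusted threshold.

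Commonly listed targets other than members gave 2 of 10 that rose with TGF-β, 6 that fell and 2 that did not pass, and the 8 called of 10 stand beside the 75.0% of all genes called in this comparison. *Mycn*, a driver of proliferation downstream of the pathway in neural progenitors, had 58, 59 and 55 raw counts in Stem, 3, 0 and 3 with TGF-β, and 0, 2 and 5 in Both. The Stem sum was 30.1-fold above that with TGF-β (exact 95% interval 13.5 to 83.1), or 19.97-fold without TGF-β replicate 2, and TGF-β and Both could not be told apart. *Bmp4*, a secreted growth factor, fell with TGF-β by 1.47 ± 0.060 on the log2 scale (adjusted p = 4.6e-10). *Bcl2*, which encodes an inhibitor of cell death, fell from 1674, 1958 and 1754 normalized counts in Stem to 1061, 1022 and 1054 with TGF-β, a log2 fold change of -0.78 ± 0.073 (adjusted p = 1.0e-06), and had 1203, 998 and 1157 in Both. *Ccnd1*, cyclin D1, fell in both steps: it had 9522 to 11454 normalized counts in Stem, 5361 to 5867 with TGF-β and 2751 to 3188 in Both, and the log2 fold change was -0.92 ± 0.071 in the first step (adjusted p = 1.6e-07) and -0.92 ± 0.072 in the second (adjusted p = 2.8e-05). *Ccnd1* shares exon bases with a gene on the other strand, which cannot be separated where the strand setting is not given. *Ccnd2*, cyclin D2, rose by 0.63 with TGF-β and was lower in Both by a log2 fold change of -0.23 (adjusted p = 0.0083).

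Over the 58 other pathway genes reported here, 55 were tested. Between Stem and TGF-β 21 rose, 21 fell and 13 did not pass, with a median of -0.0058, and between Stem and Both 19 rose, 22 fell and 14 did not pass, beside 73.3% of all genes called. Between TGF-β and Both 0 rose, 3 fell (*Disp1*, *Ccnd1* and *Ccnd2*) and 52 did not pass in the main test. That tally moved with the libraries left out, as given in the closing section. With a replicate block *Gas1* and *Lrp2* were also called, as higher in Both, and *Cdon*, *Csnk1a1* and *Rab23*, as lower. The count of 42 of 55 called stands beside 75.0% of all genes in the first comparison, and that of 3 of 55 beside 8.92% in that of TGF-β with Both. In the first comparison 7 of the 55 were called past a log2 fold change of 1, beside 25.1% of all genes.

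**Figure D5:**
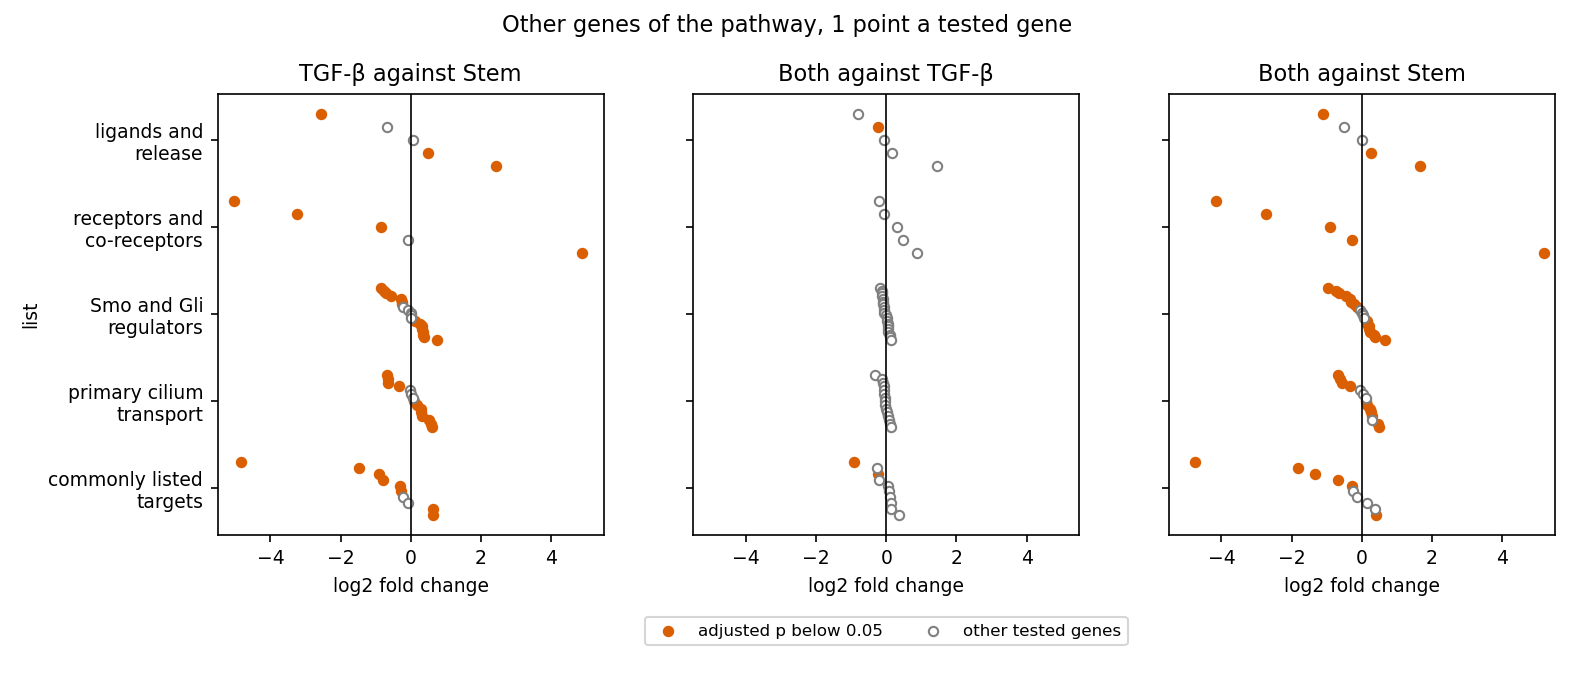
Log2 fold changes of the tested genes of 5 pathway lists in the 3 comparisons, 1 point a gene, with filled points at an adjusted p below 0.05. Points of the regulators and of cilium transport stay within a log2 fold change of 1, while receptors and co-receptors spread from -5.03 to 4.88 between Stem and TGF-β.

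Patterns most like those of the members were sought among the tested genes with a mean of at least 100 normalized counts, by Pearson correlation of log2(normalized count + 1) over the 9 libraries. The libraries share group and depth, so high values are usual and are given as a description with no test. Nearest to *Gli3* were *Spin1* (0.999) and *Gpm6b* (0.999), and nearest to *Gli2* were *Ell* (0.994) and *Cep63* (0.993). Nearest to *Ptch1* were *Wdr19* (0.993), which encodes a protein of cilium transport, and *Pdcl* (0.991). *Smo* was followed by *Creb1* (0.996) and *Fgd4* (0.995), and *Sufu* by *R3hcc1l* (0.994) and *Smc1a* (0.993). *Gli1* was followed by *Ggnbp2* (0.991) and *Cnppd1* (0.980), a match that rests on few counts of *Gli1*. Correlation compares the shape of a pattern and not the size of its change. From Stem to TGF-β the mean of *Ggnbp2* went from 3222 to 3435, and that of *Gpm6b* from 4382 to 182. *Wdr19* had 1257 ± 23.7 normalized counts in Stem, 909.97 ± 23.2 with TGF-β and 1019 ± 55.8 in Both (SD, n = 3), so that its mean in Both lay between those of Stem and TGF-β, as that of *Ptch1* did.

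Markers of endothelial cells and leukocytes were low but not still, and smooth muscle markers were abundant. Endothelial markers (*Pecam1*, *Cdh5*, *Kdr* and *Tek*), kept because endothelial cells are a source of Hedgehog ligand, summed to 48.7 to 59.8 normalized counts in Stem, 49.6 to 67.4 with TGF-β and 48.3 to 65.1 in Both. Within them *Kdr* had 0, 0 and 2 raw counts in Stem, 21, 25 and 31 with TGF-β, and 34, 32 and 24 in Both, whereas *Tek* had 42, 50 and 36, then 14, 18 and 22, then 18, 23 and 16. Between Stem and TGF-β *Kdr* rose and *Tek* fell, by a log2 fold change of -1.31 (adjusted p = 3.4e-04), and *Pecam1* and *Cdh5*, with at most 13 counts, were not tested. Leukocyte and macrophage markers (*Ptprc*, *Cd68*, *Adgre1* and *Csf1r*) summed to 19.6 to 41.9 in Stem, 71.0 to 102.5 with TGF-β and 152.2 to 156.2 in Both, most of it *Csf1r*. *Cd68* had 7, 1 and 2 raw counts in Stem, 10, 15 and 14 with TGF-β and 17, 11 and 19 in Both, *Adgre1* had no counts and *Ptprc* at most 3. Smooth muscle markers (*Acta2*, *Tagln*, *Cnn1* and *Myh11*) summed to 7837 to 9869 in Stem, 19892 to 22167 with TGF-β and 14809 to 15849 in Both. *Acta2* and *Tagln*, which make up most of that sum, rose with TGF-β by 1.21 and 1.42 on the log2 scale, while *Myh11* fell by 1.58 (adjusted p = 2.1e-05) and *Cnn1* had a log2 fold change of -0.18 and did not pass. *Kdr*, *Csf1r*, *Cd68*, *Acta2* and *Tagln* differed between Stem and TGF-β in the direction of *Gli1* and *Ihh*, and *Tek*, *Myh11* and the adventitial progenitor markers in the direction of *Gli2*, *Gli3*, *Hhip* and *Gas1*. Between TGF-β and Both, edgeR called *Csf1r* (0.86, adjusted p = 0.015) and *Pdgfra* (0.20, adjusted p = 0.049) higher in Both, as it did *Ptch1*. The markers *Acta2* (-0.59), *Tagln* (-0.25), *Cnn1* (-0.63) and *Scara5* (-1.18) were called lower, as *Disp1*, *Ccnd1* and *Ccnd2* were. Their part in those results was not tested.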

How the data were processed

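RNA-Seq libraries of ribosome-depleted total RNA were analysed from 3 Stem, 3 TGF-β and 3 Both cultures. The deposited values are raw read counts per Ensembl gene, without normalization. Sources differ on how the authors made them: the study's methods name Flexbar trimming and STAR, whereas the submitters' processing notes list HISAT2 2.2.1, SAMtools 1.13 and HTSeq 0.11.3; each gives GRCm39. The study names a stranded library kit and default settings for STAR. The strand setting used in counting, and how multiply aligned reads were counted, are not given in the sources used here.

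Counts were tested in R 4.3.3 with edgeR 4.0.16 and limma 3.58.1 (filterByExpr, TMM, quasi-likelihood test, group only, all 9 libraries, 14879 genes, Benjamini-Hochberg adjustment), in place of the study's DESeq2, which was an alternative (DESeq2 1.42.0). Adjusted p-values below 0.05 were called, and a log2 fold change beyond 1 is named where used. The test was checked on simulated counts for Stem versus TGF-β, where 200 of 200 changed genes among 14879 were recovered. Each planted change was beyond a log2 fold change of 1, and the genes of lowest mean count were left out. Far fewer genes were changed than were called in the data. The check thus says nothing of smaller changes or of the rarest transcripts. Normalized counts are scaled to a mean library of 41184300, so 1 count is 0.878 to 1.09. The exact intervals of count ratios and the floor of 3 counts cover counting error only. The 95% intervals of log2 fold changes come from the quasi-likelihood fit and include the spread between replicates. Symbols were matched for 52083 of 55416 genes, with 98.1% of counts. Exon lengths and overlaps came from GENCODE annotation of GRCm38, another build than that of the counts, so gene coordinates are not given; promoters came from RefSeq's GRCm38.p6 table.

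The members and lists were chosen with earlier results of these data known. Named genes were all members, the 3 ligands and, per list and comparison, up to 4 called genes with the largest change and a mean of at least 10 normalized counts; *Scube1*, *Hhat*, *Cdon*, *Csnk1a1*, *Rab23* and marker genes were named in addition, after their values were seen. Alternatives were DESeq2, scaling by the size factors of DESeq2 or by total counts, a filter at a mean of 10 counts or none, only the 6 libraries compared, a replicate block, TREAT against 2-fold, a prior count of 2 in place of 0.125, leaving out each library, and, added after the data were seen, leaving out the 10 most counted genes and, for ratios of low counts, each library. Some genes are not reported here, and list counts leave them out. CUT&RUN, qPCR and animal data were not analysed here.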

Additional observations from a re-analysis of the deposited data

How the results depend on the processing

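For the tested members in each comparison and the list genes named by rule in the comparison that called them, 970 of 984 recomputed values kept their direction and their side of the threshold. Most were strong differences from Stem, and some settings, such as a prior count of 2, leave the adjusted p as it was. Calls between TGF-β and Both were less steady: that of *Disp1* was lost in 7 of 18 settings and that of *Ptch1* in 5 of 18. The only reversal was *Gli1* in TGF-β versus Both, which ranged from -0.24 (without Both replicate 2) to 0.49 on leaving out 1 library and was called in no setting. Without Stem replicate 1, *Gli1* went from 3.29 to 4.14 in Stem versus TGF-β and from 3.48 to 4.33 in Stem versus Both. *Ptch1* in TGF-β versus Both ranged from 0.23 to 0.33 on leaving out 1 library, with adjusted p from 0.016 to 0.1254, so that the count of members called went from 0 to 1. In Stem versus TGF-β and in Stem versus Both the members called stayed at 6, or at 5 where a mean of 10 counts or a fit of the 6 libraries compared removed *Gli1* and at 7 where no filter or DESeq2 brought in *Hhip*. Of the other pathway genes, 3 were called in TGF-β versus Both. The count was 7 without the filter, 7 with only the 6 libraries compared and 2 to 7 on leaving out 1 library. Shares of all genes under these settings are not given, so these counts have no matching share. Past 2-fold the count of 0 was 0 to 1 on leaving out 1 library, with 1 without Both replicate 2.

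The labels do not say that a replicate number marks a shared culture, and the numbers were not taken to pair the samples: same-number correlations of deviations ranged from -0.060 to 0.177, and only replicate 2 correlated best with its own number in all 3 comparisons. With the replicate block, 8 other pathway genes in place of 3 were called between TGF-β and Both, the additional 5 being *Gas1* (0.87, adjusted p = 1.7e-07), *Lrp2*, *Cdon*, *Csnk1a1* and *Rab23*, beside 15.5% of all genes called in place of 8.92%, and members called stayed at 6, 1 and 6. Counts of *Gli1*, *Hhip* and the ligands limit what could be seen: their intervals span several-fold.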
